A study of Rattus norvegicus with 6 samples.

Results

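The miR-28 and miR-151 arms are the 4 mature miRNAs cut from the rat hairpins Mir28 and Mir151. They were taken by name from a table of 764 rat miRNA entries, as every row whose name begins with miR-28 or miR-151 followed by an arm: rno-miR-28-3p, rno-miR-28-5p, rno-miR-151-3p and rno-miR-151-5p. All 4 were read in every library, and 570 of the 764 entries had a value above 0 anywhere. Small RNA was sequenced from tissue labelled testicle of male Sprague Dawley rats. The 6 libraries are 3 from HO-1 knockout (HO-1-/-) rats and 3 from wild type rats. HO-1, heme oxygenase 1, is the stress-inducible enzyme that degrades heme. Both groups carried the same injury: the left testis was twisted by 720° for 2 h and then untwisted, and tissue was taken 3 days later. No uninjured or sham library was analysed here. Neither the rats' ages nor the making of the knockout is given in the labels, and HO-1 messenger RNA was not measured, so the genotype labels could not be checked.

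A miRNA hairpin yields a 5p and a 3p arm, which pair with each other in a short duplex. One arm is usually kept by an Argonaute protein and guides it to messenger RNAs that match the arm's seed, bases 2 to 8, while the other is usually degraded. Some hairpins leave both arms in the cell, and the arms then address different targets, since their seeds differ. Mir28 lies within Lpp, a gene for a protein of cell adhesion sites and the cytoskeleton, and Mir151 within Ptk2, the gene of focal adhesion kinase, in RefSeq's rat gene table. Intronic miRNAs are usually cut from the transcript of their host gene, but neither host transcript was measured by this assay. In human cells, miR-28 is known for its expression in B cells and miR-151 for its link to cell migration together with focal adhesion kinase.

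Mature sequences for both arms of miR-28 come from RefSeq's rat genome build GRCr8, from the minus strand, and are shown because the text below follows how the reads divide between these arms. No entry in that source was named for miR-151, so the sequences and seeds of its arms were not compared. The arms of miR-708 (plus strand), the hairpin within Tenm4, are shown because the 5p arm shares its seed with miR-28-5p. Seeds are in capitals, written 5′ to 3′.
miR-28-5p: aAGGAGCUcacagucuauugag
miR-28-3p: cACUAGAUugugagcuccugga
miR-708-5p: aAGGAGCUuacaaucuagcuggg
miR-708-3p: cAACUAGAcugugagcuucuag
Among 693 mature rat miRNAs of the RefSeq table, miR-708-5p was the 1 other entry with the seed of miR-28-5p, and 0 others had the seed of miR-28-3p. Over its 22 bases, miR-28-5p was identical to miR-708-5p at 16 positions. The differences, counted from the 5′ end with the base of miR-28-5p first, were C9U, G13A, U18G, U19C, G20U and A21G. The 2 arms of miR-28 hold a run of 11 complementary bases, aggagcucaca in miR-28-5p (bases 2 to 12) against bases 9 to 19 of miR-28-3p. That run covers the whole seed of the 5p arm and none of the seed of the 3p arm. Only the longest unbroken run was sought, so whether the seed of the 3p arm pairs beyond it was not examined.

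Values are reads per 1000000 assigned reads (RPM). A read spans a whole mature miRNA, so RPM is not divided by length. Ligation favours some miRNA ends over others, so an order of RPM between arms is an order of reads and not of molecules. Totals recovered from the values were 8300536 to 10042673 reads per library. Each member had 181 to 6046 reads in a library, which sets a counting error (1 SD of a Poisson count) of 1.29% to 7.43%, the largest for miR-151-5p. The libraries were dominated by the hepatocyte miRNA miR-122-5p, with 326912 to 365528 RPM per wild type library and 402452 to 463696 RPM per knockout library. Markers of testis were low. The 9 germ cell miRNAs had sums of 36.6 to 51.7 RPM (wild type) and 26.2 to 31.7 RPM (knockout). On average miR-34c-5p held most of these sums, at 30.7 ± 6.7 RPM (wild type) and 20.5 ± 1.8 RPM (knockout; SD, n = 3). miR-880-3p and miR-883-3p were at 0. Of the 2 arms of miR-202, known from Sertoli and Leydig cells, miR-202-3p was at 0 and miR-202-5p between 0.71 and 2.22 RPM. The levels below are thus those of libraries rich in a liver miRNA and poor in markers of the labelled tissue. A bulk library cannot tell fewer cells of a type from less RNA per cell.

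miR-151-3p, the abundant arm of its hairpin, was the member that stood apart between the genotypes. Its wild type libraries 1 to 3 held 394, 357 and 232 RPM, and knockout libraries 1 to 3 held 527, 616 and 560 RPM. Every knockout library was above every wild type library, a separation with the knockout higher that 4.39% of the 570 tested miRNAs showed. The knockout mean, 568 ± 45 RPM, was 1.73-fold the wild type mean, 328 ± 85 RPM (SD, n = 3). On the scale of log2(RPM + 1) the difference was 0.82 (SE 0.20, 95% interval 0.37 to 1.28), with a limma adjusted p of 0.051 (Benjamini-Hochberg over 570 miRNAs), just short of the threshold of 0.05. From the highest change down it stood at place 4 of the 218 miRNAs that averaged at least 10 RPM.

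The 218 abundant miRNAs had a median log2 change of -0.29. RPM scales each library to its own total, of which miR-122-5p held more in every knockout library. Against that median, miR-151-3p was higher by 1.11 on the log2 scale. TMM scaling, which aligns the bulk of the miRNAs, moved the median by 0.21 and gave miR-151-3p a log2 change of 1.05 that passed the test (limma adjusted p = 0.0058), in a fit that called 3.51% of the 570 miRNAs higher in the knockout. On whole reads recovered from the RPM values, edgeR's quasi-likelihood test gave a change of 1.03 and an adjusted p of 0.00055, and called 4.56% of miRNAs higher. Of the 15 alternative settings tried, 9 called miR-151-3p higher and 6 did not, and its direction was the same in all 15. Without wild type library 3, its lowest library, the log2 change was 0.59 and passed (limma adjusted p = 0.047). Without wild type library 2 it did not pass (limma adjusted p = 0.098), nor without any 1 knockout library (limma adjusted p between 0.14 and 0.18). Without knockout libraries 1, 2 and 3 the log2 change was 0.88, 0.76 and 0.83. Those fits called 13, 21 and 5 miRNAs in either direction, against 36 with all 6 libraries.

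**Figure D1:**
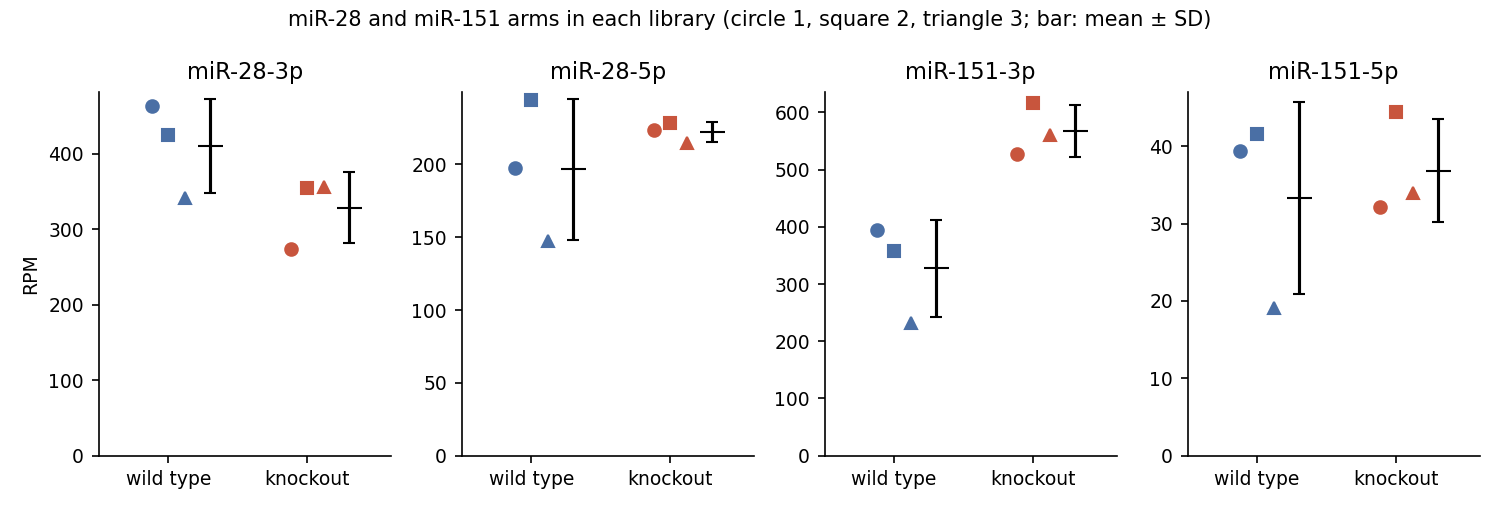
RPM of each arm in each library (vertical axis from 0), with wild type in blue, knockout in red, library 1 as a circle, 2 as a square and 3 as a triangle, and the mean ± SD of 3 libraries beside them. The knockout values of miR-151-3p, 527 to 616 RPM, lie above all wild type values, 232 to 394 RPM, while the groups overlap for the other 3 arms.

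miR-151-5p is the rare arm of the same hairpin. Its level was 39.3, 41.5 and 19.1 RPM over wild type libraries 1 to 3, against 32.2, 44.5 and 33.9 RPM over knockout libraries 1 to 3. The groups overlapped, with the lowest and the second highest value both in the wild type. Means were 33.3 ± 12.4 and 36.8 ± 6.6 RPM (SD, n = 3). The log2 difference of 0.20 (SE 0.31, 95% interval -0.51 to 0.91) did not pass (limma adjusted p = 0.71), and the interval still holds a change as large as that of miR-151-3p. Under the 4 other scalings the difference was 0.40 to 0.45, with TMM at 0.42 (limma adjusted p = 0.41). It was 0.36 without wild type library 1, 0.40 without wild type library 2 and 0.06 without knockout library 2. Without wild type library 3 its sign turned, to -0.14. RefSeq's gene table places a further miRNA gene, Mir151b (rno-mir-3586), over Mir151. The 2 arms of miR-3586 in the table had at most 1 read in any library, so its separate rows held next to none of the reads from this locus.

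miR-28-3p was the most abundant member in the wild type. Wild type libraries 1 to 3 had 464, 424 and 342 RPM of it, knockout libraries 1 to 3 had 274, 354 and 357 RPM. The 2 higher wild type libraries lay above every knockout library, and the third lay among them. Means were 410 ± 62 and 328 ± 47 RPM (SD, n = 3), a log2 difference of -0.32 (SE 0.16, 95% interval -0.69 to 0.05) that did not pass (limma adjusted p = 0.32). That is 0.03 below the median change of the abundant miRNAs (-0.03 on the log2 scale), and with TMM scaling it was -0.09 (limma adjusted p = 0.67). Without knockout library 1, its lowest library, it was -0.19.

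miR-28-5p, which carries the seed it shares with miR-708-5p, was read at 198, 244 and 148 RPM for wild type libraries 1 to 3. For knockout libraries 1 to 3 the level was 223, 228 and 215 RPM. All 3 knockout values lay inside the wild type range. Means were 197 ± 48 and 222 ± 7 RPM (SD, n = 3), a log2 difference of 0.21 (SE 0.18, 95% interval -0.22 to 0.63) that did not pass (limma adjusted p = 0.55). It was 0.43 with TMM scaling (limma adjusted p = 0.18) and 0.40 to 0.46 over the 4 other scalings, 0.38 without wild type library 2 and 0.02 without wild type library 3, and passed in none of these. The coefficient of variation of miR-28-5p was 24.6% for the wild type and 3.14% for the knockout, beside medians of 13.3% and 12.3% over the abundant miRNAs. miR-708-5p added little to this seed: its reads came to 46 for the wild type, of which 36 were from library 1, and to 30 for the knockout, at most 3.58 RPM. miR-708-3p had 12 and 7 reads in all.

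In limma's test on RPM, 0 of the 4 arms passed, against 6.32% of all 570 miRNAs in either direction and 0.702% in the direction higher in the knockout. At an unadjusted p below 0.05, 1 of the 4 passed, miR-151-3p, where 19.3% of all 570 did, so that count is close to the share over all miRNAs. miR-151-3p was also the 1 arm that edgeR's test called. The authors' deposited table gives log2 fold changes of 0.79 for miR-151-3p, 0.18 for miR-28-5p, 0.15 for miR-151-5p and -0.32 for miR-28-3p. The p-values in the authors' deposited table, by a test and an adjustment that the labels do not describe, are 2.91e-08, 0.0417, 0.147 and 0.541 in that order. Its p for miR-28-5p lies below 0.05, while here that arm had every knockout value inside the wild type range.

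**Figure D2:**
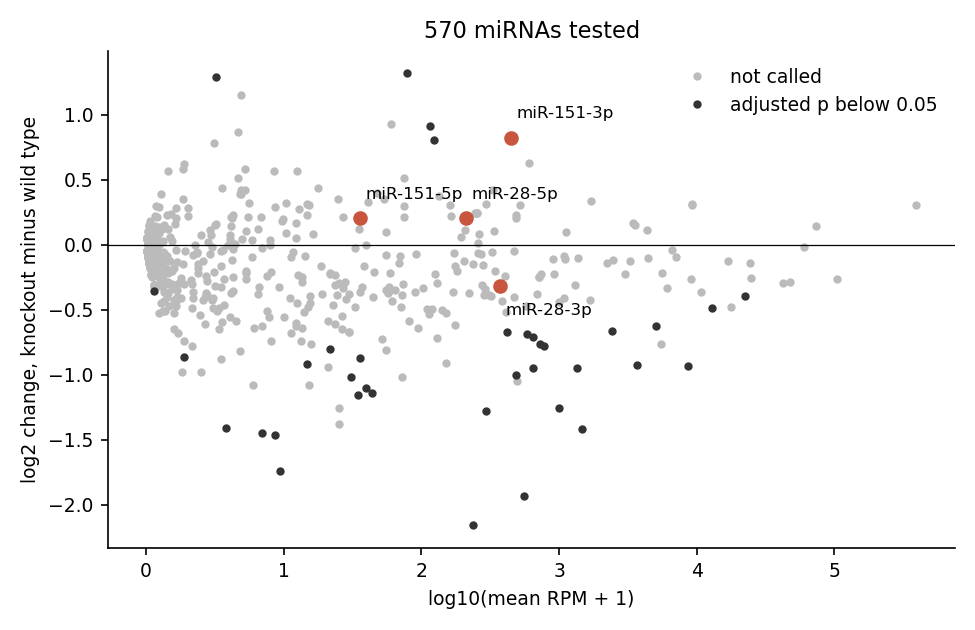
Log2 change (knockout minus wild type, log2(RPM + 1) scale) against log10(mean RPM + 1) for the 570 tested miRNAs, each point a miRNA, with the 36 called by limma in black and the 4 arms in red. miR-151-3p, at 0.82, sits among the highest changes at its level, miR-28-5p and miR-151-5p lie near 0.2, and miR-28-3p, at -0.32, lies close to the median of the abundant miRNAs.

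Wild type library 3 held the lowest wild type value of all 4 arms. Relative to the mean of the other wild type libraries, it was lower by a log2 of -0.38 for miR-28-3p, -0.58 for miR-28-5p, -0.69 for miR-151-3p and -1.08 for miR-151-5p. The 218 abundant miRNAs had a median of -0.21 in this library, and 82.1% of them were below the other wild type libraries. The low values of the 4 arms there thus went with a lower level of most abundant miRNAs, by more than the median. Knockout library 1 lay about as low in its group: the abundant miRNAs had a median of -0.21 against the other knockout libraries, and 78.4% of them were below. There miR-28-3p was at -0.37, miR-151-5p at -0.28 and miR-151-3p at -0.16, while miR-28-5p was at 0.01. The same library had the lowest 3p share of miR-28, and without it the log2 difference of the arm ratio of miR-28 was -0.40. What part either library had in the differences between genotypes was not tested beyond the fits that leave it out.

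The use of the arms within a hairpin does not depend on library totals, since both arms come from 1 library. Of miR-28, the 3p arm held 70.1%, 63.5% and 69.8% of the hairpin's reads in wild type libraries 1 to 3 and 55.1%, 60.8% and 62.4% in knockout libraries 1 to 3. The knockout libraries were all lower, and 37.9% of 95 hairpins had arm ratios that separated the genotypes in 1 direction or the other. The 5p arm took 40.6% ± 3.8 of the reads in the knockout against 32.2% ± 3.8 in the wild type (SD, n = 3). The ratio of 3p to 5p reads averaged 2.13 ± 0.34 for wild type and 1.48 ± 0.23 for knockout libraries (SD, n = 3), a log2 difference of -0.52 (exact permutation p = 0.1, two-sided, the smallest that 3 against 3 libraries allow).

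Of miR-151, the 3p arm held 90.9%, 89.6% and 92.4% in wild type libraries 1 to 3 and 94.2%, 93.3% and 94.3% in knockout libraries 1 to 3. Here the knockout libraries were all higher. The ratio of 3p to 5p reads averaged 10.3 ± 1.8 for wild type and 15.6 ± 1.5 for knockout libraries (SD, n = 3), a log2 difference of 0.61 (exact permutation p = 0.1, again the lowest that this design allows). The arms of both hairpins thus had separate ratios in the 2 genotypes, in opposite directions. The 3p share was lower for miR-28 and higher for miR-151 in each of the 3 knockout libraries.

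Such separation was common among the hairpins of these libraries. Of 95 hairpins with both arms above 0 in every library and a sum of at least 10 RPM on average, the 37.9% whose arm ratios did not overlap between genotypes were 19 with a higher and 17 with a lower 3p share in the knockout. limma across the 95 hairpins, chosen after the data were seen, called 9.47% of them. Neither hairpin was among them, with an adjusted p of 0.063 for miR-151 (SE 0.19, 95% interval of the log2 difference 0.18 to 1.05) and 0.13 for miR-28 (SE 0.20, 95% interval -0.99 to -0.06). By the size of the difference they stood 22nd and 29th of the 95, where the median absolute difference was 0.32.

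**Figure D3:**
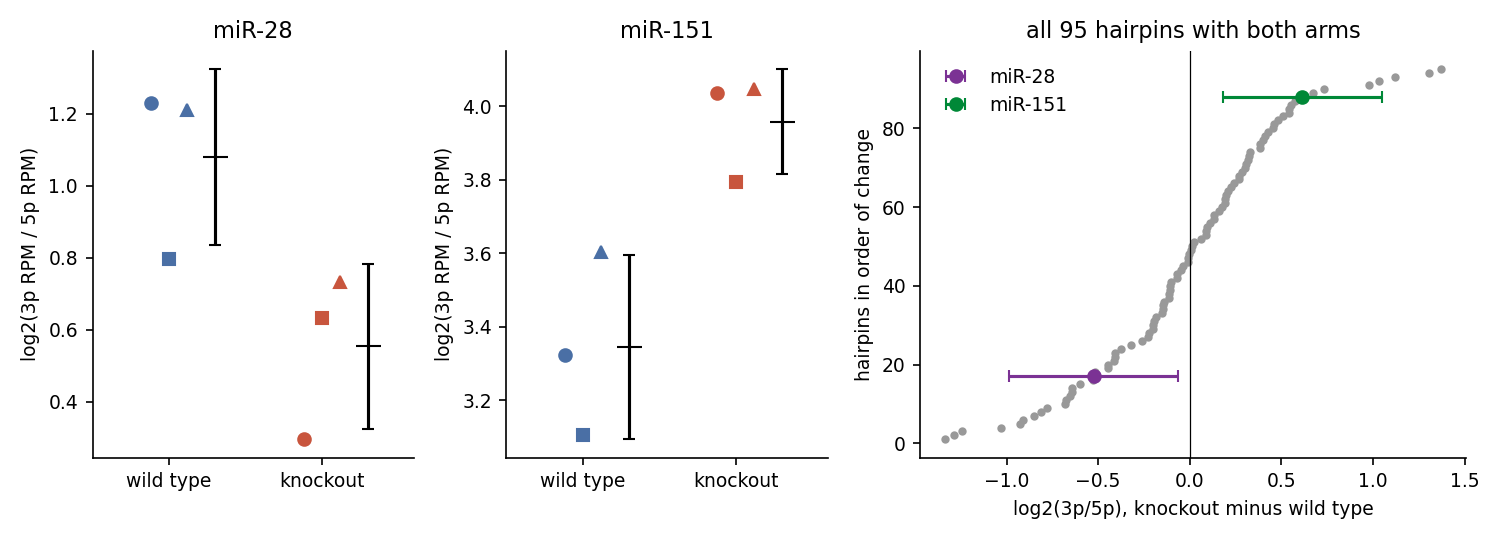
The left and middle panels plot log2(3p RPM / 5p RPM) of miR-28 and miR-151 in each library (axes do not start at 0), with the mean ± SD of 3 libraries. The right panel plots the difference of that ratio, knockout minus wild type, for the 95 hairpins in order, with the 95% interval of limma for miR-28 at -0.52 and for miR-151 at 0.61, on opposite sides of 0.

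miR-28 left reads of both arms in every library. Its minor arm held 36.4% of its reads on average over the 6 libraries, the ninth most even use among the 95 hairpins, whose median minor arm held 2.65%. The minor arm of miR-151 held 7.55%, at place 34 of 95. Summed over both arms the hairpins were of middle abundance, at places 40 and 43 of the 95.

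The sum of both arms separated the hairpins. Both arms of miR-151 came to 433, 399 and 251 RPM for wild type libraries 1 to 3, and to 559, 661 and 594 RPM for knockout libraries 1 to 3. The knockout sums were all higher, with a log2 difference of 0.78 (exact permutation p = 0.1, again the lowest that this design allows). miR-151-3p made up 89.6% to 94.3% of these sums, so this largely repeats the result of that arm. How many other hairpins had sums that separated the genotypes was not counted, so whether the miR-151 sum stands out cannot be told. Both arms of miR-28 came to 661, 669 and 489 RPM and to 498, 583 and 571 RPM. These overlapped, with a log2 difference of -0.13 (exact two-sided permutation p = 0.6) that turned to between 0.07 and 0.13 under the 4 other scalings of the library totals. Leaving out 1 library moved it between -0.28 and -0.05: without wild type library 3 the groups no longer overlapped (-0.28, exact permutation p = 0.1, the lowest that 2 against 3 libraries allow), and it was -0.05 without wild type library 2 and -0.06 without wild type library 1 or knockout library 1.

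Set against each other within a library, the hairpins changed order. Reads of miR-151 over reads of miR-28 stood at 0.65, 0.60 and 0.51 in wild type libraries 1 to 3 and at 1.12, 1.13 and 1.04 in knockout libraries 1 to 3. miR-28 thus led in every wild type library and miR-151 in every knockout library. The log2 ratio differed by 0.91 (exact permutation p = 0.1, again the lowest that this design allows), and by 0.81 without wild type library 3. How often other pairs of hairpins, or of their arms, have ratios that separate the genotypes was not counted. Whether this change of order stands out among such pairs thus cannot be told. Between the arms of a hairpin, ratios that separated the genotypes were common, at 37.9% of 95 hairpins. Over the 5 exact tests on arms and hairpins, the 4 with p = 0.1 had a Benjamini-Hochberg adjusted p of 0.125. The sum of miR-151, its arm ratio and the ratio of the hairpins all hold miR-151-3p, so these tests are not independent.

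The change of order was seen in the 3p arms and not in the 5p arms. miR-151-3p over miR-28-3p was 0.85, 0.84 and 0.68 for wild type and 1.92, 1.74 and 1.57 for knockout libraries 1 to 3. For the 5p arms the ratio averaged 0.166 ± 0.035 for wild type and 0.166 ± 0.026 for knockout libraries (SD, n = 3). By level, the order in every wild type library was miR-28-3p, miR-151-3p, miR-28-5p and miR-151-5p, and in every knockout library miR-151-3p, miR-28-3p, miR-28-5p and miR-151-5p. Among all miRNAs of a library, miR-151-3p took places 74 to 87 for wild type and 53 to 56 for knockout libraries, and miR-28-3p at places 69 to 74 over all 6.

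**Figure D4:**
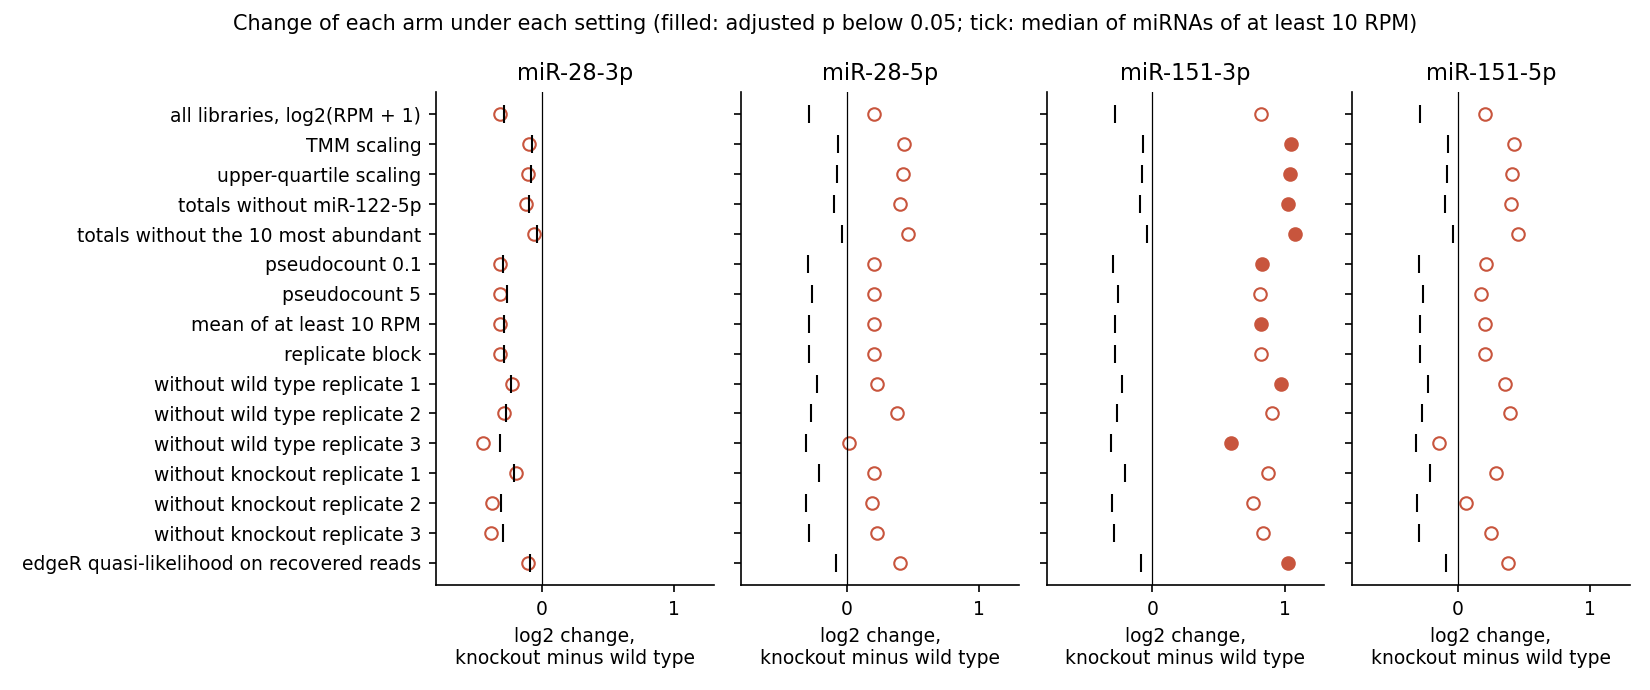
Log2 change of each arm (knockout minus wild type) under each setting, filled where the adjusted p was below 0.05, with a tick at the median of the miRNAs of at least 10 RPM. miR-151-3p lies between 0.59 and 1.08 in every setting and apart from the median, miR-28-3p stays close to it, and miR-151-5p falls below 0 without wild type library 3.

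Other miRNAs were set beside each arm by likeness, measured as the root mean square difference of the 6 centred log2(RPM + 1) values among the miRNAs of at least 10 RPM. Nearest to miR-151-3p were miR-183-5p (0.099), miR-148b-5p (0.133) and miR-128-3p (0.143). miR-128-3p, itself intronic, had a wild type mean of 480 ± 118 RPM and a knockout mean of 728 ± 14 RPM (SD, n = 3) and did not pass (limma adjusted p = 0.091). For miR-28-3p they were miR-223-3p (0.065), a myeloid miRNA, miR-140-3p (0.071) and miR-23a-3p (0.081).

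miR-28-5p lay nearest to miR-22-3p (0.092), miR-32-5p (0.099) and miR-22-5p (0.106). miR-151-5p had as neighbours miR-378a-5p (0.088), miR-378a-3p (0.102) and miR-378b (0.107), which share a family. The arms of each member hairpin lay farther from each other, at 0.325 for miR-28 and 0.347 for miR-151. The neighbours were picked as the nearest, so a partner named beforehand would usually lie farther. Ranked among the abundant miRNAs outside the members, miR-151-5p took place 26 from miR-151-3p, and miR-151-3p place 48 from miR-151-5p. miR-28-5p took place 158 from miR-28-3p, and miR-28-3p place 96 from miR-28-5p.

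Beside these hairpins, 76 rows of other miRNAs known to lie in introns of protein-coding genes were read, 63 of them tested. In this list 0 rose and 2 fell, both arms of the endothelial miR-126a, whose host is Egfl7. Over all 570 miRNAs 0.702% rose and 5.61% fell, so the list's counts do not set it apart. miR-126a-3p went from 25300 ± 817 to 19302 ± 1170 RPM (SD, n = 3; limma adjusted p = 0.030) and miR-126a-5p from 983 ± 117 to 573 ± 53 RPM (limma adjusted p = 0.016). The other abundant members did not pass. miR-26a-5p, whose hosts are Ctdsp genes, stood at 46396 ± 1815 and 37751 ± 508 RPM, just short of the threshold (limma adjusted p = 0.056). miR-26b-5p stood at 6706 ± 752 and 6502 ± 426 RPM (limma adjusted p = 0.82), and miR-7a-5p at 4169 ± 386 and 4522 ± 556 RPM (limma adjusted p = 0.61). The median log2 change of the list was 0.01, beside -0.12 over all 570 miRNAs, and over its 35 abundant members -0.14, beside -0.29.

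Markers of other cells had the following levels in the libraries of both genotypes, where limma called 5.61% of all 570 miRNAs lower and 0.702% higher. The 2 endothelial rows had sums of 25222 to 26982 RPM (wild type) and 19147 to 21287 RPM (knockout), with both called lower. The 3 smooth muscle rows summed to 9790 to 14537 and 5842 to 7769 RPM, with 2 of them called lower. The 5 leukocyte rows summed to 788 to 909 and 838 to 945 RPM and the 3 red blood cell rows to 437 to 541 and 353 to 436 RPM, with 0 called in either. The 4 hepatocyte rows summed to 394281 to 435008 and 458885 to 515681 RPM, with miR-194-5p called lower. The higher knockout sum came from miR-122-5p alone, which did not pass (log2 change 0.30, limma adjusted p = 0.095). The other 3 hepatocyte rows had lower knockout means, with log2 changes of -0.10 for miR-122-3p, -0.29 for miR-192-5p and -0.48 for miR-194-5p. The part of these markers in the levels of the miR-28 and miR-151 arms was not tested.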

How the data were processed

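Each small RNA library started from 1 μg of total RNA and was read over 50 bp from 1 end, per the labels' protocols. The authors deposited RPM with 2 decimals for each library and its mean for each genotype. The deposited table also holds a log2 fold change and a p-value for each miRNA. The submitters' processing notes list FastQC, BWA, edgeR and rn6 without saying what each was used for. The labels do not say how reads matching several miRNAs were counted. The main test was limma 3.58.1 (R 4.3.3) with a mean-variance trend on log2(RPM + 1), comparing genotypes without covariates. It covered 570 miRNAs, leaving out 194 entries listed at 0 throughout. p-values were adjusted by Benjamini-Hochberg, with a threshold of 0.05, and the script was tested on simulated data. For ratios and sums of arms, every assignment of the 6 libraries to genotypes was enumerated (exact permutation test, two-sided). Whole reads were recovered as the total at which values became whole: 97.8% to 98.9% of values lay within 0.0051 RPM of a whole read. The step of wild type library 1 lies close to 0.1, so its total rests on higher values. edgeR 4.0.16 on those reads was an alternative only. Other alternatives were 4 scalings, pseudocounts of 0.1 and 5, a mean of at least 10 RPM, the replicate number as a block, and leaving out each library. The named miRNAs are the 4 arms, miR-708, the 3 nearest to each arm, called members and up to 4 abundant members of the intronic list, and markers. For the intronic list, 37 of 38 names matched, and its hosts are from general knowledge and were not looked up. The unmatched name was miR-191, which is listed here as miR-191a, so its arms are missing from the list's counts. miR-191a-5p and miR-191a-3p had log2 changes of 0.16 and 0.31 that did not pass (limma adjusted p = 0.46 and 0.47). miR-885-5p of the hepatocyte list did not match. RefSeq's tables were used for names, for the hosts of Mir28, Mir151 and Mir708, and for sequences. Both miR-28 arms and both miR-708 arms matched a mature sequence, and none was named for miR-151. Those tables use GRCr8, not rn6, so no coordinates are printed. The members and lists were chosen with earlier results of these data known. Nothing states that the libraries came from separate animals, so p-values measure the spread between these libraries only. Counting errors from reads cover sampling only, since no molecular identifiers are described.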

Additional observations from a re-analysis of the deposited data

How the results depend on the processing

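With all 6 libraries, limma called 36 miRNAs. The replicate number as a block gave 22, edgeR on recovered reads 61, and leaving out 1 library between 5 and 26: 17 without wild type library 2 and 13, 21 and 5 without knockout libraries 1, 2 and 3. The log2 change of miR-151-3p passed at 1.05 with TMM scaling, 1.04 with upper-quartile scaling, 1.02 with totals without miR-122-5p, 1.08 with totals without the 10 most abundant miRNAs, 0.83 with a pseudocount of 0.1, 0.82 with a minimum mean of 10 RPM and 1.03 in edgeR, and ranged from 0.59 to 0.97 with 1 library left out. It did not pass with a pseudocount of 5 or in the replicate block (limma adjusted p = 0.069 and 0.058). miR-151-5p ranged from -0.14 to 0.40 with 1 library left out. The sum of both miR-28 arms changed sign with TMM scaling (0.10), upper-quartile scaling (0.087), totals without miR-122-5p (0.069) and totals without the 10 most abundant (0.13). For the miR-28 sum and miR-151-5p the cause was not tested. miR-28-3p, miR-28-5p, the arm ratios, the miR-151 sum and the ratio of the hairpins kept their direction in all their alternatives. Deviations of same-numbered libraries correlated at 0.03, 0.18 and 0.20, and those of differently numbered libraries at -0.29 to 0.06. Wild type library 1 correlated best with knockout library 2. The labels do not say what the replicate numbers mark, so the main test did not take them as pairs. Depth limits miR-151-5p, with 181 to 436 reads a library, and miR-708.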
